A study of Coffea canephora with 12 samples.

Results

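The transition from pretreatment to induction of somatic embryogenesis in *Coffea canephora* is described here for all genes outside the auxin-conjugating *CcGH3* family, which are 25556 of the 25574 genes counted. The induction stage comprises leaf explants sampled 1, 2 and 21 days into induction (dai), kept in medium with Yasuda salts and benzyladenine (BA), a cytokinin. The pretreatment stage comprises leaves sampled 14, 9 and 0 days ahead of induction (dbi). Leaves at 9 and 0 dbi came from plantlets on Murashige-Skoog (MS) salts with the auxin naphthaleneacetic acid (NAA) and the cytokinin kinetin (KIN). Leaves at 14 dbi, which GEO's labels call the control, came from MS salts with no growth regulator. The plantlets were var. Robusta, grown in vitro. They stood in the light up to 0 dbi, whereas the explants were punched from the leaves and shaken in the dark. The stage therefore cannot be told apart from wounding, medium, growth regulator, light or time.

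Each time point has 2 single-end libraries, given as technical sequencing replicates of 1 biological sample. Their reads were summed, and the 3 induction time points were compared with the 3 pretreatment time points, so the time point is the replicate of a stage (n = 3 each). The error of every stage comparison is thus the spread between time points, which contains real change over time. Libraries held 10091539 to 36525500 reads in genes in induction and 15209282 to 27628703 in pretreatment, with 18199 to 22257 and 17204 to 21843 genes detected, in that order of stages. Although given as technical replicates, the 2 libraries of a time point differed by 32.9 (1 dai) to 287 (0 dbi) times the chi-square per degree of freedom that sampling noise gives. In 4 libraries, replicate 1 of 2 dai, 21 dai, 14 dbi and 0 dbi, over 15% of reads had low mapping quality (17.6% to 20.3%, against 11.2% to 12.7% in the other 8). Whole leaf tissue was sequenced, so fewer cells of a type and less RNA per cell cannot be told apart. The gene IDs are not paired with descriptions in the sources used here, so genes are named by ID only and leaf markers were not analysed here.

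Somatic embryogenesis is the formation of embryos from somatic cells, here cells of a leaf. Tissue is first conditioned with growth regulators while still part of the plant and is then moved to an induction medium, where some cells leave their leaf identity, divide and form embryogenic structures. Auxin and cytokinin are the classical regulators of this change of fate. A leaf explant at the start of induction is also a wounded organ that has lost its vascular supply, and only part of its cells takes the embryogenic route.

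Induction and pretreatment separated over the whole transcriptome. Levels are given as CPM (reads of a gene scaled to a common total of reads per library), adjusted with TMM size factors, and differences as log2(CPM + 1), over the 19973 genes that passed the filter on low counts (5583 did not). Of the summed variance among the 6 time points, 53.8% lay between the stages, 28.8% within induction and 17.4% within pretreatment. The first principal component took 57.2% of the variance. Its scores were 57.8, 58.1 and 126 at 1, 2 and 21 dai, against −72.8, −100.2 and −68.8 at 14, 9 and 0 dbi. No induction time point reached the pretreatment side of this component. The second component, with 21.5%, ordered the time points within induction, with scores of −82.6, −39.1 and 83.2 at 1, 2 and 21 dai against 16.4, 22.6 and −0.51 at 14, 9 and 0 dbi. The third, with 11.3%, set 9 dbi (68.8) apart from 14 dbi (−48.7) and 0 dbi (−34.1). With each library on its own, the first component took 44.2% and the second 17.0%, and all 6 induction libraries again lay opposite the 6 pretreatment libraries.

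**Figure D1:**
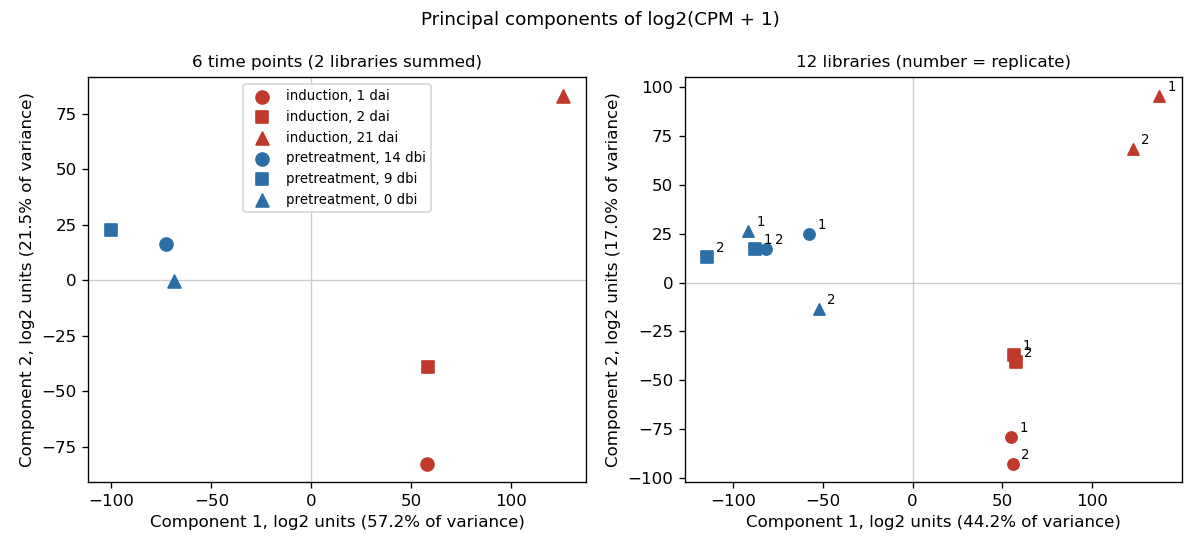
Scores on the first 2 principal components of log2(CPM + 1), in log2 units, for the 6 summed time points (left) and the 12 libraries (right, with the replicate number); red is induction, blue pretreatment, and the shape of a point gives the time point. Component 1 (57.2% of the variance on the left) parts the stages, and component 2 (21.5%) runs from 1 dai to 21 dai within induction.

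The distance between the stages exceeded the mean distance within them, but not every distance within induction. The root mean square difference over genes, in log2 units, averaged 1.37 ± 0.21 (SD, 9 pairs of time points) between stages, 1.01 ± 0.32 (SD, 3 pairs) within induction and 0.797 ± 0.139 (SD, 3 pairs) within pretreatment. The ratio of the mean between stages to the mean within both was 1.52. The mean between exceeded the mean within by 0.468 (exact one-sided permutation test over the 10 distinct assignments of 6 time points, p = 0.1, the smallest this design can give). Within induction, 1 dai and 2 dai were 0.661 apart, whereas 21 dai was 1.28 from 1 dai and 1.07 from 2 dai. Within pretreatment, 0 dbi was 0.638 from 14 dbi, and 9 dbi was 0.892 from 14 dbi and 0.862 from 0 dbi. Thus the 2 closest pairs in summed counts were 0 dbi with 14 dbi and 1 dai with 2 dai. Their order is not settled. In single libraries, 14 dbi and 0 dbi were 0.880 to 0.977 apart, against 0.678 to 0.895 for 1 dai and 2 dai. The largest distance within a stage, that of 21 dai from 1 dai, was longer than 3 of the 9 distances between stages: 2 dai from 0 dbi (1.10), 2 dai from 14 dbi (1.15) and 1 dai from 0 dbi (1.19). The farthest pair was 21 dai from 9 dbi (1.72).

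Counted in genes, 4982 to 8253 differed 2-fold between a time point of induction and one of pretreatment, with the lowest number for 2 dai against 0 dbi and the highest for 21 dai against 9 dbi. Within induction the number was 2296 between 2 dai and 1 dai, 4272 between 21 dai and 2 dai and 5864 between 21 dai and 1 dai. Within pretreatment it was 1984 between 0 dbi and 14 dbi, 3619 between 0 dbi and 9 dbi and 3815 between 9 dbi and 14 dbi. The first day of induction, 1 dai against 0 dbi, differed 2-fold in 6190 genes (2713 higher and 3477 lower), which was about as many as separated 21 dai from 1 dai.

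The spread between the 2 libraries of a time point was of the same order as the spread within pretreatment. Libraries of 1 time point were on average 0.876 apart (6 pairs), at 0.691, 0.585 and 0.741 for 1, 2 and 21 dai against 0.965, 1.18 and 1.10 for 14, 9 and 0 dbi, so that each pair of libraries lay closer in induction than any did in pretreatment. Libraries of different time points were 1.13 apart within induction (0.678 to 1.53, 12 pairs), 1.09 within pretreatment (0.880 to 1.36, 12 pairs) and 1.51 between stages (1.11 to 2.02, 36 pairs). For each of the 12 libraries, the nearest library of another time point was of its own stage. In induction, 5 of 6 libraries had the other library of their time point as the nearest of all, the exception being replicate 1 of 1 dai, which was nearest to replicate 2 of 2 dai (0.678). In pretreatment this was so for none of 6. Replicate 2 of 14 dbi was nearest to replicate 2 of 0 dbi (0.880) and was itself the nearest library for 4 of the other 5. The stage of each library could thus be read from its nearest neighbour, whereas the 3 time points of pretreatment could not.

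**Figure D2:**
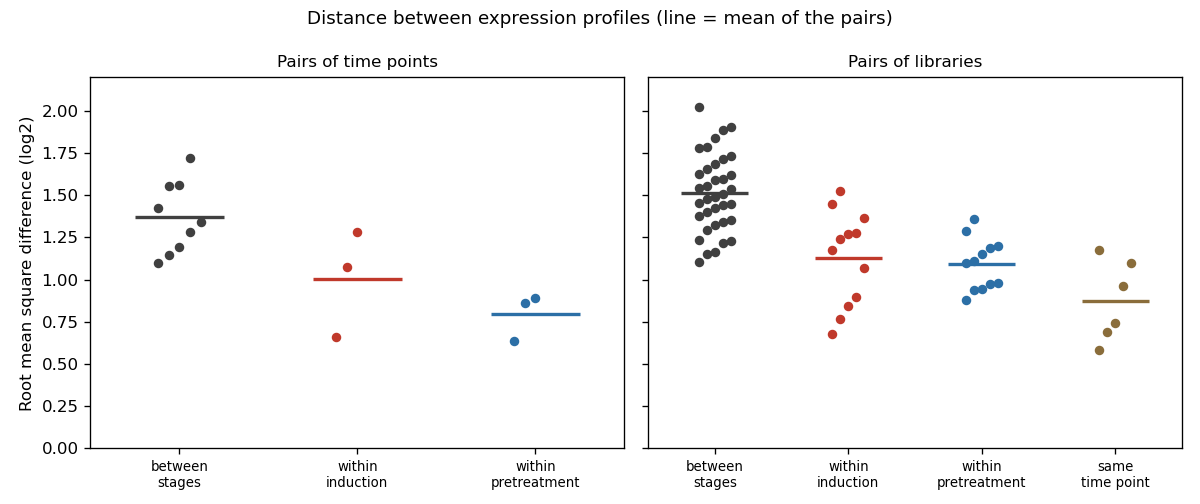
Root mean square difference of log2(CPM + 1) for each pair of summed time points (left) and each pair of libraries (right), in log2 units, with a line at the mean of the pairs. Between stages the time points averaged 1.37, against 1.01 within induction and 0.797 within pretreatment, and the 2 libraries of a time point averaged 0.876.

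Over the summed time points, and unlike between the 2 libraries of a time point, induction was the more variable stage gene by gene. The median SD of a gene over the 3 time points was 0.41 in induction and 0.35 in pretreatment on the log2 scale, and 57.7% of genes (11517) had the larger SD in induction. The median absolute difference between the stage means was 0.55. In 6775 genes this difference exceeded 2 times the mean of the 2 SDs, and in 7883 it was smaller than that mean. Over 1 dai and 2 dai alone, 2 points, the median SD was 0.29.

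With edgeR's quasi-likelihood test over the 6 time points, 1078 genes were higher in induction (5.40% of the genes tested) and 1114 were lower (5.58%), at an adjusted p under 0.05 over all genes tested. At an unadjusted p under 0.05, 5780 genes passed. The median log2 fold change was 1.96 over the genes called higher and −2.18 over those called lower, against 0.08 over all genes tested, and the smallest change called was 0.80. A log2 fold change of at least 3 was found in 291 genes called higher and 295 called lower, and one of at least 5 in 139 and 61, in the same order. Large changes were also left uncalled. Of 2940 genes with a change of at least 2 on the log2 scale, 1774 did not pass, and their median SD within stages was 0.88, against 0.56 in the 1166 that passed. In none of the called genes did the 3 time points of the stages overlap, and in 866 of those called higher and 878 of those called lower the 6 libraries of each stage did not overlap either. Over all genes tested, the time points did not overlap in 4056 genes that were higher (20.3%) and 3401 that were lower (17.0%). The libraries did not overlap in 1404 genes that were higher (7.03%) and 1324 that were lower (6.63%). Genes called for a stage difference are more likely to be among both, so the lack of overlap is no separate result.

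The number of calls was lower when any time point other than 21 dai was left out. It was 725 without 1 dai, 365 without 2 dai and 2288 without 21 dai, and it was 379 without 14 dbi, 734 without 9 dbi and 395 without 0 dbi. Leaving out single libraries left 1167 (without replicate 2 of 14 dbi) to 2263 calls (without replicate 1 of 21 dai), with 1337 without replicate 2 of 9 dbi and 1412 without replicate 2 of 21 dai. In none of these fits did a called gene change its direction. On the same 6 time points, DESeq2 called 4524 genes. When each time point was represented by 1 library, replicate 1 gave 224 calls and replicate 2 gave 901 among 18297 genes tested in both, and 150 genes were in both lists (67.0% of the list from replicate 1 and 16.6% of that from replicate 2), all in the same direction. The direction was also the same for 100% of the calls from replicate 1 and 99.6% of those from replicate 2, against 80.6% of all genes tested in both.

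The difference of the called genes from pretreatment was present at 1 dai. Relative to the gene's own pretreatment mean, the genes called higher had median log2 differences of −0.02, −0.12 and 0.15 at 14, 9 and 0 dbi, followed by 1.89, 1.77 and 1.75 at 1, 2 and 21 dai. The genes called lower had −0.11, 0.08 and 0.03 at 14, 9 and 0 dbi, followed by −1.95, −1.86 and −2.33 at 1, 2 and 21 dai. The medians of all genes tested stayed between −0.04 and 0.11. These medians describe genes chosen for the stage contrast and carry no test. In reads, the genes called higher took 14.997%, 14.973% and 13.6% of all reads in genes at 1, 2 and 21 dai, against 3.39%, 3.20% and 3.59% at 14, 9 and 0 dbi. The genes called lower took 3.81%, 4.38% and 2.81% at 1, 2 and 21 dai, against 18.7%, 20.0% and 19.5% at 14, 9 and 0 dbi. Each set took over 13% of reads at every point of the stage where it was high and under 5% at every point of the other. The direction of this split followed from the choice of genes, so the shares carry no test either.

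**Figure D3:**
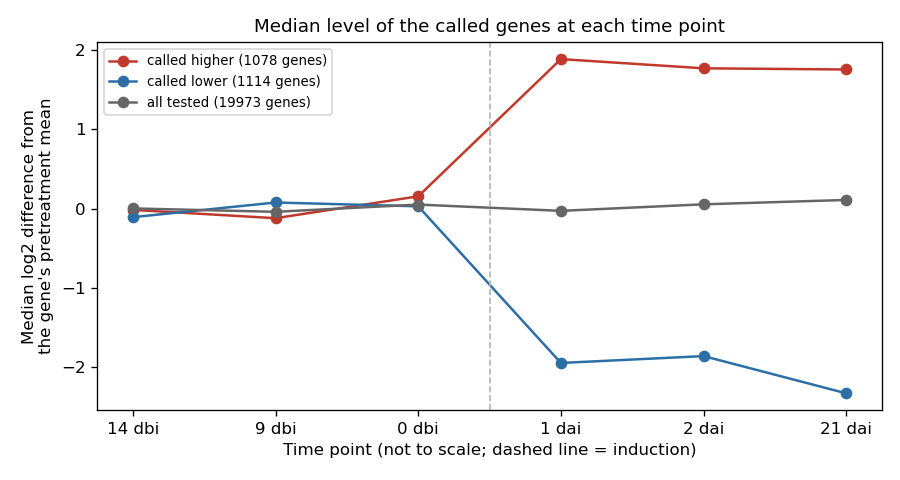
Median log2 difference from the gene's own mean over the 3 pretreatment points, at each time point in order of sampling, for the 1078 genes called higher in induction, the 1114 called lower and all 19973 tested; the dashed line marks induction. The higher set stands at 1.89, 1.77 and 1.75 and the lower set at −1.95, −1.86 and −2.33 at 1, 2 and 21 dai.

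A stricter description asks that a gene differ 2-fold, in log2(CPM + 1), in each of the 9 pairs of one induction and one pretreatment time point. This held for 717 genes that were higher in induction (3.59% of the genes tested) and 868 that were lower (4.35%). Of these, 584 and 742 were also called by edgeR, in the same order, and 133 and 126 were not. At any fold, 4056 genes were higher in all 9 pairs (20.3%) and 3401 were lower (17.0%). With the 36 pairs of libraries, 269 genes were 2-fold higher throughout (1.35%) and 297 were 2-fold lower (1.49%). The pairs share time points and are not independent, so these counts carry no p. The numbers of genes by pairs held did not fall off steadily: 282 genes were higher in 8 pairs and 717 in 9, and 244 were lower in 8 pairs and 868 in 9. The class of 9 takes in every gene whose smallest difference is 2-fold or more, without upper limit, so its size does not show a separate group of genes. In 1762 genes some pairs were 2-fold higher and others 2-fold lower.

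**Figure D4:**
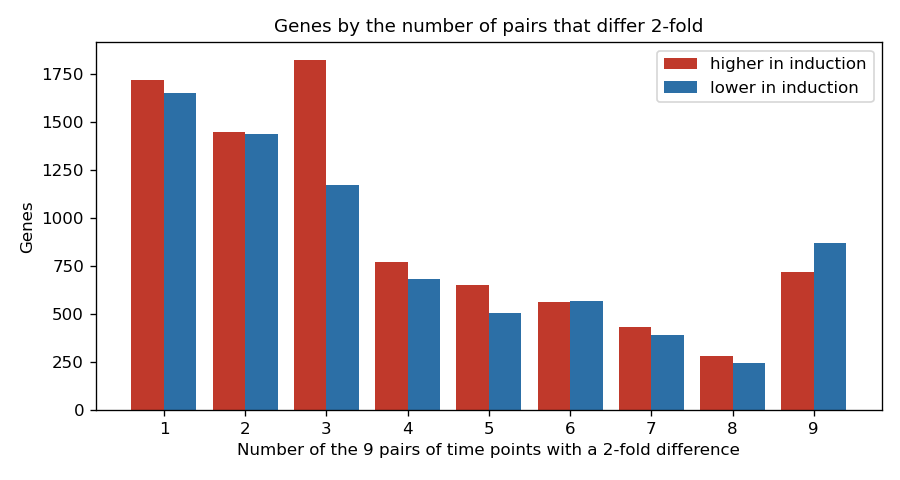
Number of genes (vertical axis, starting at 0) by how many of the 9 pairs of time points differed 2-fold, for genes higher in induction (red) and lower (blue); genes with no such pair are left out. The 717 and 868 genes that held in all 9 pairs outnumber the 282 and 244 that held in 8, but the class of 9 has no upper limit of difference.

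A gene that held in exactly 6 pairs can have missed all 3 pairs of a single time point. Genes that missed fewer pairs were not broken down by time point. Of 564 genes that were 2-fold higher in exactly 6 pairs, 124 missed all 3 pairs of 21 dai and 91 all 3 pairs of 1 dai, while 60 missed those of 0 dbi. Of 567 that were 2-fold lower in exactly 6 pairs, 106 missed all 3 pairs of 9 dbi and 83 those of 21 dai. Among these genes held in 6 pairs, the single point that most often accounted for all misses was 21 dai for higher genes and 9 dbi for lower genes.

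Within the genes that held, the course over induction differed by direction. Among the 717 higher genes, the highest level was at 1 dai in 272, at 2 dai in 145 and at 21 dai in 300, and 145 were 2-fold higher at 21 dai than at 1 dai while 98 were 2-fold lower. Among the 868 lower genes, 319 were 2-fold lower still at 21 dai than at 1 dai and 49 were 2-fold higher. Over all 19973 genes tested, 3280 were 2-fold higher and 2584 2-fold lower at 21 dai than at 1 dai. The rule left out genes that came close to the other stage at any induction point, so these courses describe the chosen genes and carry no test. The lower genes had their highest pretreatment level at 14 dbi in 189 cases, at 9 dbi in 361 and at 0 dbi in 318. A plain step, with a range under 2-fold in log2(CPM + 1) inside both stages, was found in 277 of the higher and 252 of the lower genes. Between the ends of pretreatment, 68 of the higher genes were 2-fold higher and 5 were 2-fold lower at 0 dbi than at 14 dbi, and 73 of the lower genes were higher and 48 lower, beside 1142 and 842 of all genes tested. At 1 dai the higher genes stood a median of 2.09 (log2) above 0 dbi and the lower genes stood at −2.38 relative to it.

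Some genes were at or near 0 in a whole stage. In all, 18 tested genes had no read in any pretreatment library, of which 11 were called higher, and 3 had none in any induction library, of which 2 were called lower. Such genes passed the filter on low counts only through the stage where they had reads, so the direction of their calls was fixed beforehand. Over all genes tested, 5.40% were called higher and 5.58% lower. A count of 0 over a stage allows a level up to 0.0236 CPM in pretreatment and 0.0205 CPM in induction (3 reads over the stage, counting error only). Of the 18, 6 reached 1 CPM at each induction point. Cc00_g27520 had 10.3, 9.62 and 126 CPM at 1, 2 and 21 dai, against 0 at 14, 9 and 0 dbi, which makes it at least 2055-fold higher. Cc02_g14980 (1.25, 5.96 and 33.2 CPM at 1, 2 and 21 dai) and Cc02_g24200 (1.35, 6.26 and 31.8 CPM) were also highest at 21 dai, and both had no read in pretreatment. Cc09_g01360 ran the other way, with 11.1, 4.36 and 1.26 CPM at 1, 2 and 21 dai. The only gene of this kind among the lower ones was Cc08_g03310, with no read at 1, 2 and 21 dai, against 1.49, 3.01 and 1.30 CPM at 14, 9 and 0 dbi. These genes were chosen after their values were seen. A wider set of 23 genes had at least 10 CPM at each induction point and a mean under 0.5 CPM in pretreatment, and 6 showed the reverse.

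Among called genes that were 2-fold higher in all 9 pairs, had no overlap of libraries and reached 10 CPM at each induction point, the 8 with the largest fitted changes had almost no reads in pretreatment. With limma-voom on the same 6 time points, Cc06_g11480, Cc10_g14510, Cc11_g16420 and Cc02_g21670 of these 8 lost the call (adjusted p of 0.10 to 0.32). Cc00_g27520 is not among the 8, since it had 9.62 CPM at 2 dai. Cc06_g08840 had 10.1, 21.6 and 36.4 CPM at 1, 2 and 21 dai, against 0, 0 and 0.0236 CPM at 14, 9 and 0 dbi. All its pretreatment libraries together held 1 read and its induction libraries 3295, a ratio of 2866 (95% counting interval 514 to 113242), with a fitted log2 fold change of 11.06 ± 1.04 (SE) and an adjusted p of 0.0080. Cc08_g12780 had 102.8, 88.5 and 161 CPM at 1, 2 and 21 dai, against 0.0237, 0.0706 and 0.236 CPM at 14, 9 and 0 dbi. Its log2 fold change was 10.02 ± 0.75 (adjusted p = 0.0054), and its smallest difference over the 9 pairs was 72.4-fold on the log2(CPM + 1) scale. These 2 genes and Cc06_g01100 (35.7, 65.9 and 106 CPM, against 0.0949, 0 and 0.0707 CPM at 14, 9 and 0 dbi) had their highest level at 21 dai. For Cc06_g01100 this rested on replicate 1 of 21 dai (219 CPM), since replicate 2 had 72.4 CPM, against 77.3 CPM in replicate 2 of 2 dai. For Cc06_g08840 the libraries of 21 dai had 66.5 and 27.5 CPM, against 39.0 and 10.6 CPM at 2 dai.

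The other 5 had their lowest induction level at 21 dai, and all were still more than 15-fold above every pretreatment point there on the log2(CPM + 1) scale. Cc11_g16420 had 260.2, 109 and 15.2 CPM at 1, 2 and 21 dai, against 0.0712, 0.0706 and 0.0707 CPM at 14, 9 and 0 dbi. Cc02_g21670 had 196, 144 and 21.8 CPM at 1, 2 and 21 dai, against 0.0949, 0.0235 and 0.118 CPM at 14, 9 and 0 dbi. Cc06_g11480 had 130.0, 151 and 31.9 CPM at 1, 2 and 21 dai, against 0.0475, 0 and 0.0943 CPM at 14, 9 and 0 dbi. These 3 genes were thus several-fold lower at 21 dai than at 1 dai. Cc02_g07930 was the steadiest of the 5, with 79.3, 78.6 and 35.7 CPM at 1, 2 and 21 dai, against 0, 0.0471 and 0.0943 CPM at 14, 9 and 0 dbi. Cc10_g14510 (62.1, 199 and 28.9 CPM, against 0.0237, 0.0235 and 0.0943 CPM at 14, 9 and 0 dbi) owed its value at 2 dai to a single library, since the 2 libraries of that point had 10.8 and 305 CPM. The adjusted p of the 8 genes ran from 0.0054 to 0.011. Like the genes at 0 above, these 8 passed the filter on low counts only through induction. The direction of their calls was thus fixed beforehand, and their p-values add no separate support.

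**Figure D5:**
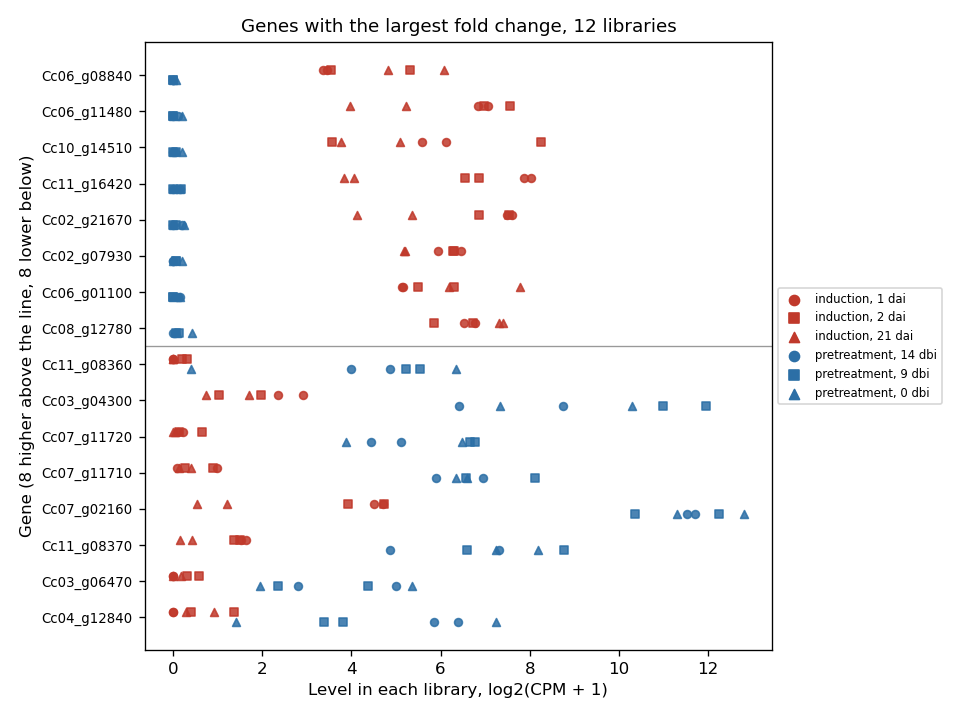
Level of the 16 genes with the largest fold change in each of the 12 libraries, as log2(CPM + 1); red is induction, blue pretreatment, and the shape of a point gives the time point. In the 8 higher genes (top) the pretreatment libraries sit near 0, and the induction libraries can spread widely, as in Cc10_g14510 (10.8 to 305 CPM). In the 8 lower genes (bottom) the pretreatment libraries spread widely, as in Cc03_g04300 (83.7 to 3996 CPM) and Cc11_g08360 (0.316 to 79.8 CPM). The induction libraries of Cc11_g08360 sit near 0 (0 to 0.245 CPM).

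By the same rule, with 10 CPM at each pretreatment point, the 8 lower genes with the largest changes had adjusted p-values of 0.0057 to 0.026. Those near 0 in induction, such as Cc11_g08360 and Cc07_g11720, passed the filter on low counts only through pretreatment. The direction of their calls was fixed beforehand. Cc07_g02160 had 24.2, 18.8 and 1.14 CPM at 1, 2 and 21 dai, against 3030, 3182 and 5366 CPM at 14, 9 and 0 dbi, and differed at least 120-fold in every pair on the log2(CPM + 1) scale (log2 fold change −8.04 ± 1.26, adjusted p = 0.016). Its lowest level was at 21 dai. Cc03_g04300 had 5.33, 1.79 and 1.92 CPM at 1, 2 and 21 dai, against 194, 3107 and 842 CPM at 14, 9 and 0 dbi, and its pretreatment libraries ran from 83.7 to 3996 CPM (log2 fold change −8.84 ± 1.32, adjusted p = 0.015). Cc07_g11710 had a log2 fold change of −8.19 ± 0.70 (adjusted p = 0.0057), with 0.614, 0.451 and 0.146 CPM at 1, 2 and 21 dai, against 78.4, 190 and 89.0 CPM at 14, 9 and 0 dbi. Its neighbour Cc07_g11720 had 0.123, 0.280 and 0.0243 CPM at 1, 2 and 21 dai, against 24.6, 107 and 59.4 CPM at 14, 9 and 0 dbi.

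A second pair of neighbours was among them. Cc11_g08360 had 0, 0.187 and 0 CPM at 1, 2 and 21 dai, against 19.1, 42.3 and 49.6 CPM at 14, 9 and 0 dbi, and Cc11_g08370 had 2.09, 1.71 and 0.292 CPM at 1, 2 and 21 dai, against 70.3, 271 and 201 CPM at 14, 9 and 0 dbi. In both pairs of neighbours the highest level was at 9 or 0 dbi. The 2 libraries of 0 dbi differed widely for Cc11_g08360, at 0.316 and 79.8 CPM. The last 2 genes were Cc03_g06470 (0, 0.342 and 0.0973 CPM at 1, 2 and 21 dai, against 14.0, 12.3 and 25.9 CPM at 14, 9 and 0 dbi) and Cc04_g12840 (0, 0.809 and 0.365 CPM, against 64.5, 11.6 and 56.9 CPM). Both had their lowest level at 1 dai. The 2 libraries of 0 dbi had 149.9 and 1.67 CPM of Cc04_g12840, the second close to its highest induction library (1.59 CPM), and the call was lost in 9 of 32 alternative fits. Whether reads are shared between near-identical neighbours was not tested.

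The 4 called genes with the most reads in each direction had log2 fold changes of 1.66 to 4.31 and of −8.04 to −4.29. CPM is not corrected for gene length, so these genes took the most reads and need not have the most transcripts. Cc04_g09020 had 5207, 4086 and 3281 CPM at 1, 2 and 21 dai, against 1263, 1314 and 1407 CPM at 14, 9 and 0 dbi (log2 fold change 1.66 ± 0.41, adjusted p = 0.048). Cc08_g12770, the neighbour of Cc08_g12780 above, had 6239, 5133 and 649 CPM at 1, 2 and 21 dai, against 244, 45.3 and 319 CPM at 14, 9 and 0 dbi (4.31 ± 1.09, adjusted p = 0.049). At 1 dai and 2 dai it was the gene with the most reads of all, at 0.620% and 0.553% of reads in genes. At 21 dai it was only 2.03-fold above 0 dbi on the log2(CPM + 1) scale, and single libraries of the stages overlapped. Its neighbour Cc08_g12780 was instead highest at 21 dai, so the 2 genes shared the direction and not the course.

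Cc03_g11110 had 1191, 3128 and 1836 CPM at 1, 2 and 21 dai, against 380.2, 518 and 662 CPM at 14, 9 and 0 dbi (1.98 ± 0.49, adjusted p = 0.047). Cc03_g08490 had 2111, 1943 and 1416 CPM at 1, 2 and 21 dai, against 274, 203 and 288 CPM at 14, 9 and 0 dbi (2.84 ± 0.38, adjusted p = 0.013). Of these 4 genes, the first 3 had adjusted p-values close to the threshold, and they lost the call in 24, 18 and 20 of 33 alternative fits, in the order given. Cc03_g08490 lost it in 5.

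On the lower side, Cc00_g15710 took more reads than any other gene at 14 dbi and 0 dbi (1.04% and 1.64%). It had 564, 992 and 147 CPM at 1, 2 and 21 dai, against 10276, 8661 and 17742 CPM at 14, 9 and 0 dbi (−4.43 ± 0.87, adjusted p = 0.026). Cc02_g07500 had 319, 615 and 74.5 CPM at 1, 2 and 21 dai, against 3613, 8805 and 7292 CPM at 14, 9 and 0 dbi (−4.29 ± 0.89, adjusted p = 0.031). Both were lowest at 21 dai and were at least 5-fold lower in every pair. Cc00_g14320 went the other way within induction, with 34.9, 130 and 192 CPM at 1, 2 and 21 dai, against 5728, 5527 and 2103 CPM at 14, 9 and 0 dbi (−5.22 ± 0.84, adjusted p = 0.018). The fourth was Cc07_g02160, given above.

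The genes with the smallest p-values were steadier in the summed time points than in single libraries. Cc10_g08200 had 427, 256 and 289.5 CPM at 1, 2 and 21 dai, against 3.91, 5.95 and 6.65 CPM at 14, 9 and 0 dbi, a log2 fold change of 5.88 ± 0.40 (adjusted p = 0.0054). Its libraries ran from 202 to 425 CPM in induction and from 2.54 to 9.04 CPM in pretreatment. Cc06_g09870 had 183, 176 and 89.2 CPM at 1, 2 and 21 dai, against 0.688, 1.11 and 1.53 CPM at 14, 9 and 0 dbi (7.07 ± 0.50, adjusted p = 0.0054), and its pretreatment libraries ran from 0.0459 to 2.09 CPM. Cc01_g16980 had 7.57, 8.61 and 6.49 CPM at 1, 2 and 21 dai, against 265, 458 and 213 CPM at 14, 9 and 0 dbi (−5.37 ± 0.41, adjusted p = 0.0054), and its pretreatment libraries ran from 64.3 to 609 CPM. Cc08_g16780 had 1.52, 1.52 and 2.97 CPM at 1, 2 and 21 dai, against 119.6, 68.6 and 85.5 CPM at 14, 9 and 0 dbi (−5.51 ± 0.43, adjusted p = 0.0054). Here too the summed values hid a wide spread, since the 2 libraries of 0 dbi had 219 and 6.39 CPM and the highest induction library had 5.37 CPM.

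Examples of a plain step were picked after the values were seen, as the largest with a range under 2-fold inside both stages. The range was taken over the summed time points on the log2(CPM + 1) scale. They were Cc08_g12780 and Cc10_g08200 above and Cc04_g15400 among the higher genes, and Cc08_g16780, Cc00_g04970 and Cc06_g08510 among the lower genes. That scale flattens levels near 0. In CPM, Cc08_g12780 ran from 0.0237 to 0.236 in pretreatment. Cc04_g15400 had 62.4, 86.6 and 46.5 CPM at 1, 2 and 21 dai, against 0.190, 0 and 0.354 CPM at 14, 9 and 0 dbi (8.47 ± 0.99, adjusted p = 0.010). Cc00_g04970 had 26.5, 23.3 and 16.5 CPM at 1, 2 and 21 dai, against 597, 399 and 400.5 CPM at 14, 9 and 0 dbi (−4.40 ± 0.36, adjusted p = 0.0054). Cc06_g08510 had 5.75, 9.57 and 5.16 CPM at 1, 2 and 21 dai, against 83.5, 99.2 and 117 CPM at 14, 9 and 0 dbi (−3.87 ± 0.34, adjusted p = 0.0061). These 3 genes differed at least 7.99-fold in every pair of time points on the log2(CPM + 1) scale.

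Genes with more reads were called more often. With the tested genes split into 10 bins of equal size by mean CPM, the share called was 1.05% in the lowest bin (0.163 to 1.40 CPM), 10.4% in the fifth and 23.4% in the highest (above 108.8 CPM). Lower genes outnumbered higher ones in the highest bin, where 10.4% of genes were called higher and 13.0% lower, and higher genes outnumbered lower ones in the first 5 bins. The part of read depth in this order was not tested. The genomic span of the gene models was similar, with a median of 3109 bp for higher genes, 3526 bp for lower genes and 3316 bp for all tested.

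The called genes lay on all 11 chromosomes. The share called ran from 10.6% of tested genes on chromosome 3 to 13.7% on chromosome 9 (57 higher and 61 lower of 860), and it was 7.23% of the 2046 genes not placed on a chromosome. Among 16115 pairs of tested neighbours, both genes were called in 290: 80 pairs were higher, 115 lower and 95 changed in opposite directions. Runs of neighbours called in the same direction numbered 174 and held 369 genes (16.8% of those called). Most were pairs, and the longest had 4 genes, 1 run in each direction. No share expected by chance is given for these counts.

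The higher run of 4 lay on chromosome 3, from Cc03_g04140 to Cc03_g04170, and its members did not share a course. Cc03_g04140 had 184, 380.2 and 690 CPM at 1, 2 and 21 dai, against 105, 42.1 and 59.9 CPM at 14, 9 and 0 dbi (2.60 ± 0.58, adjusted p = 0.037), and was highest at 21 dai. Cc03_g04150 had 842, 550.3 and 312 CPM at 1, 2 and 21 dai, against 139.8, 139.9 and 203 CPM at 14, 9 and 0 dbi (1.82 ± 0.43, adjusted p = 0.042), and was highest at 1 dai. Cc03_g04170 was likewise highest at 1 dai, with 45.9, 32.0 and 22.1 CPM at 1, 2 and 21 dai, against 12.5, 8.40 and 13.8 CPM at 14, 9 and 0 dbi. Cc03_g04160 was level, with 17.6, 23.6 and 20.4 CPM at 1, 2 and 21 dai, against 3.96, 1.58 and 6.60 CPM at 14, 9 and 0 dbi. Single libraries of the stages overlapped for Cc03_g04140, with a lowest of 159 CPM in induction and a highest of 229 CPM in pretreatment, and for Cc03_g04170, with 12.6 and 14.9 CPM. From Cc03_g04140 to Cc03_g04170, the call was lost in 9, 14, 17 and 17 of 33 alternative fits.

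The lower run of 4 lay on chromosome 9, from Cc09_g09010 to Cc09_g09040. Cc09_g09030 had 113, 166 and 59.9 CPM at 1, 2 and 21 dai, against 1710, 1092 and 1614 CPM at 14, 9 and 0 dbi (−3.70 ± 0.51, adjusted p = 0.013). Cc09_g09010 (27.0, 43.4 and 7.98 CPM at 1, 2 and 21 dai, against 210.0, 139 and 185 CPM at 14, 9 and 0 dbi) and Cc09_g09020 (17.4, 31.6 and 3.50 CPM, against 126, 135 and 201 CPM) had the same order of induction time points. In these 3 genes the libraries of 14 dbi stood far apart. They had 4614 and 317 CPM of Cc09_g09030, 600.5 and 22.1 CPM of Cc09_g09010, and 337 and 24.1 CPM of Cc09_g09020, with replicate 1 the higher in each. Libraries of the stages overlapped for Cc09_g09010 and Cc09_g09020, and from Cc09_g09010 to Cc09_g09040 the call was lost in 14, 15, 3 and 10 of 33 alternative fits. Cc09_g09040 had the smallest change of the run, with 38.1, 33.4 and 27.7 CPM at 1, 2 and 21 dai, against 86.3, 68.7 and 64.2 CPM at 14, 9 and 0 dbi (−1.14 ± 0.24, adjusted p = 0.030), and its 2 libraries at 14 dbi had 97.0 and 83.1 CPM. The 2 runs were chosen after their values were seen, as the longest.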

How the data were processed

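RNA from leaves and explants of *C. canephora* was sequenced in 12 single-end libraries. The authors deposited 1 table of read counts per library, whole numbers per gene and not normalized, for 25574 genes. The submitters' processing notes name FastQC 0.11.5, cutadapt 1.14 and HTSeq 0.10.0. For the aligner, the genome build and strandedness nothing is given in the sources used here, so antisense and overlapping genes are uncertain. Lines of unassigned reads stayed out of library sizes and tests. They held 23.1% to 45.9% of reads as not aligned and 11.2% to 20.3% as of low mapping quality, and 29.2% to 59.9% of reads lay in genes. All 25574 IDs matched a locus tag of the RefSeq annotation AUK_PRJEB4211_v1. This annotation served for chromosome and neighbours, and no coordinates are given.

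The counts of the 2 libraries of a time point were summed, filtered with filterByExpr by stage (edgeR 4.0.16, R 4.3.3), scaled with TMM and fitted with glmQLFit and glmQLFTest over all 19990 genes tested, the *CcGH3* genes included. P-values are two-sided and adjusted by Benjamini-Hochberg. Standard errors were derived from each gene's F statistic and fold change. The steps were run on simulated counts to check the code. Those counts varied less than the data, whose common coefficient of variation within stages was 0.601, and held no change over time within a stage. The simulation therefore does not show how many of the calls are right. For a gene with 0 reads in 1 library, the upper limit of 3 counts was 0.0821 to 0.297 CPM and covers counting error alone. The other tools were DESeq2 1.42.0 and limma 3.58.1. Alternatives were other tools, size factors and filters, other pseudocounts and folds, 1 library per time point, 12 libraries unsummed with and without a replicate block, and time points left out. Single libraries left out, and time points left out of the 9 pairs, were added after seeing the data.

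Named genes were, in each direction, the 8 with the largest fold change (called, 2-fold in all 9 pairs, no overlap of libraries, at least 10 CPM at each time point of the higher stage), the 4 called genes without overlap of time points with the highest mean CPM, and the 2 with the smallest p. Members and lists were chosen with earlier results of these data known. Groups by protein signature and promoter words were planned but not analysed here.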

Additional observations from a re-analysis of the deposited data

How the results depend on the processing

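In each of the 33 alternative fits, every one of the 2192 called genes that was tested kept its direction, and the fits differed in the number called. Against 1078 higher and 1114 lower genes, DESeq2 called 2300 and 2224, and limma-voom on the summed time points, other size factors and other filters stayed within 1.5 times. Library size alone gave 1297 and 996. With the 12 libraries unsummed, edgeR called 3265 and 3024 from the contrast of time point means, and limma-voom with an estimated correlation of 0.27 between the libraries of a time point called 1804 higher genes. The edgeR fits on the 12 libraries take the libraries, not the time points, as replicates, whereas this limma-voom fit treats the libraries of a time point as correlated. With the replicate block on the 12 libraries, edgeR called 3314 and 3039. The numbers were not taken to pair the libraries, since 5 of 15 correlations of deviations exceeded 0.1 (−0.05 to 0.39). All 5 lay among 14 dbi, 0 dbi, 2 dai and 21 dai, the time points whose replicate 1 had over 15% of low mapping quality. Between 14 dbi and 0 dbi the correlation was 0.02. The cause of this pattern was not tested. Fits on part of the libraries called 108 and 117 genes from the libraries numbered 1, 332 and 576 from those numbered 2, and 672 higher genes from the 8 libraries under 15% of low mapping quality. Without 9 dbi and 1 dai together, which leaves 2 time points against 2, edgeR called 0 and 0, with 4888 genes at an unadjusted p under 0.05. No other tool was run on those 4 points.

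With 1 time point or 1 library left out, higher genes ran from 122 (without 14 dbi) to 1126 (without 21 dai) and lower genes from 208 (without 2 dai) to 1337 (without replicate 2 of 1 dai). Among the fits without 1 library, the number of higher genes moved by over 1.5 times for 5 libraries: 464 and 551 without replicate 2 of 14 dbi and of 9 dbi, 669 and 674 without replicate 1 of 0 dbi and of 9 dbi, and 687 without replicate 2 of 21 dai. Lower genes were 703 and 725 without replicate 2 of 14 dbi and of 21 dai.

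Genes 2-fold apart in all 9 pairs, 717 higher and 868 lower, became 4056 and 3401 at any fold, 192 and 218 at 4-fold, and 269 and 297 over the 36 pairs of libraries. A pseudocount of 5 CPM left 464 higher genes. With 1 time point left out the numbers were 813 (without 9 dbi) to 1082 (without 21 dai) higher and 1000 to 1130 lower. Fewer pairs then have to hold, so these numbers could only stay or rise. The distance ratio of 1.52 was 1.83 over the 2000 genes of highest level, 2.27 with 1 minus Spearman's correlation, 1.36 over 12 libraries, 1.33 and 1.37 with the libraries numbered 1 and 2, and 1.43 to 1.64 with 1 time point left out. The first component's share of 57.2% was 67.6%, 44.2%, 48.2% and 52.7% over those 2000 genes, the 12 libraries and the libraries numbered 1 and 2, and 58.1% to 65.3% with 1 time point left out. Over 38 named genes, 240 of 1239 refits lost the call and none changed sign. The cause of these differences was not tested.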
